A study of Mus musculus with 6 samples.

Results

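The genes described here were 46 genes of the lysosome, chosen by name for their function: soluble hydrolases and their cofactors, proteins of the lysosomal membrane, the subunits of the proton pump that acidifies the organelle, and the transcription factors Tfeb and Tfe3. All 46 were among the 13321 genes of the deposited table, and all 46 passed the filter on low values and were tested. They comprised 16 genes of the pump and 30 other genes. Hippocampal RNA came from wild-type (WT) male C57 BL/6 mice, an inbred laboratory strain, in a young group of 3 months (3M) and an aged group of 22 months (22M). Each group had 3 libraries, named J11, J13 and J15 for 3M and 72, 76 and 78 for 22M, and no library carried a further treatment. Whether each library was made from a different mouse is not stated in the labels, so every p below measures the spread between these libraries.

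Lysosomes break down proteins, glycans and lipids with hydrolases that work at acid pH. The acid is supplied by the vacuolar-type ATPase, in which the cytosolic V1 sector splits ATP and turns a rotor that drives protons through the membrane-bound V0 sector. In neurons, inherited loss of single lysosomal enzymes causes storage diseases, and the factors TFEB and TFE3 switch on many lysosomal genes through E-box motifs (CACGTG) near their start sites.

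None of the 46 genes rose or fell between the ages. Values are FPKM, fragments scaled to the length of the transcript and to the library's total, summed over the transcripts of a gene, and a gene is said to rise or fall where the limma p on log2(FPKM + 0.5), adjusted over the 13041 genes tested, was under 0.05. By that rule 0 of 46 members rose, against 0.92% of all genes tested, and 0 fell, against 1.21%, or 2.13% in either direction. In limma without a variance trend 0 members rose and 0 fell as well, where 23 and 14 of the 13041 genes did. A fit that used only the variance of the gene itself called 0 of all genes, so its counts of 0 members carry no information. With libraries weighted by their quality (array weights) 0 members rose and 3 fell, namely Atp6v1f, Atp6v1g1 and Ctsf. In that fit 556 of the 13041 genes rose and 739 fell. At an unadjusted limma p under 0.05, 10 members were lower in 22M (21.7%) and 2 were higher (4.35%), against 16.4% and 10.6% of all genes tested. These counts moved with the scaling, to 6 lower and 2 higher with median-of-ratios scaling (12.7% and 13.7% of all genes) and to 3 lower and 3 higher after quantile normalization (12.7% and 13.3%). The smallest adjusted p of a member was 0.0651, for Atp6v1f. By the thresholds of the study, which took an unadjusted p under 0.05 together with a change beyond 1.5-fold, 1 member was lower and 0 were higher, where 4.22% and 4.08% of all genes were.

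Most members had lower mean log2 values in 22M, by small amounts. Log2 fold changes are for 22M against 3M on the log2(FPKM + 0.5) scale throughout, on which changes of low genes come out too small. They were below 0 for 37 of 46 members (80.4%), against 56% of all genes tested, and their median was -0.16, against -0.05 for all genes. After quantile normalization 29 of 46 were below 0, against 51.4% of all genes, and with FPKM corrected for the length and GC content of transcripts 29 were, against 52.5%. The 16 pump genes had a median of -0.24 and the 30 others a median of -0.15. All 3 libraries of 22M lay below all 3 of 3M for 12 members (26.1%, against 21.1% of all genes tested), and above them for 2 members (4.35%, against 13.3%). Of the 12, 8 were among the 16 pump genes (50%) and 4 among the 30 other members (13.3%).

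**Figure D1:**
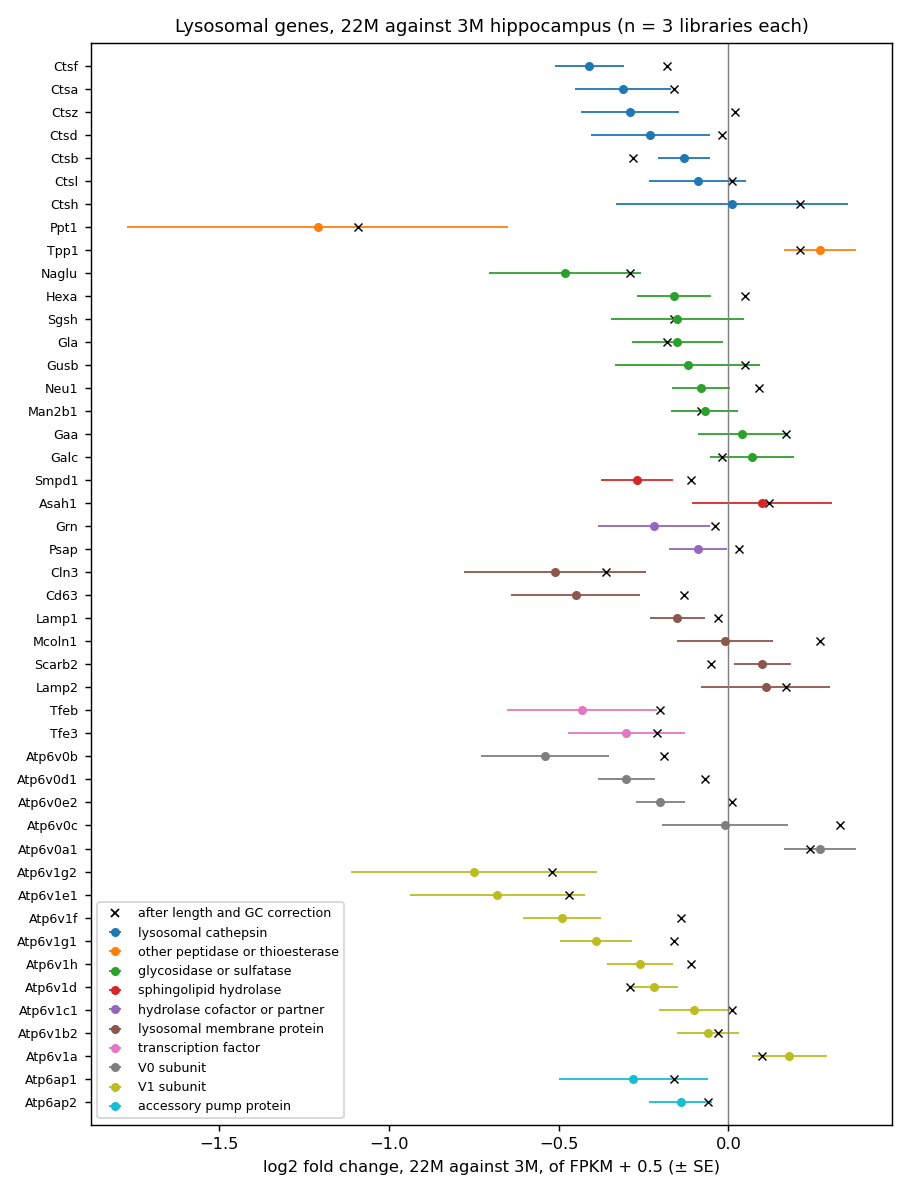
Log2 fold change (22M against 3M, of FPKM + 0.5) of each of the 46 genes with its standard error, coloured by role; crosses give the value corrected for the length and GC content of the transcripts. Points run from -1.21 (Ppt1) to 0.27 (Tpp1, Atp6v0a1), most lie left of 0, and most crosses lie nearer to 0 than their points.

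The motif of TFEB and TFE3 was searched in the promoters of the members. RefSeq start sites on GRCm38.p6 were available for 39 of the 46 genes, with 48 promoters of 300 bases, from 250 bases before to 50 bases after the start. The palindrome CACGTG was found in 14 of the 48 (29.2%), against 7.15% of all 32851 promoters of the same length and 9.66% of the 13050 promoters of genes tested here. The longer TCACGTG, searched on both strands and containing CACGTG, was found in 12 (25.0%), against 3.77% and 5.70%. The genes with CACGTG were Ctsa, Ctsd, Ctsf, Ctsl, Gaa, Gla, Naglu, Sgsh, Lamp1, Mcoln1, Cln3, Atp6v0b, Atp6v0d1 and Atp6v1a. Of these, 6 promoters are printed as examples, chosen after the values were seen: Lamp1 for the most copies, Cln3 for the longest palindrome, Mcoln1 and Atp6v0b for 2 copies close together, and Atp6v0d1 and Ctsf for their smaller p-values below. Capitals mark CACGTG with a directly adjoining T before it or A after it, and in Cln3 the full palindrome.
Lamp1, chr8:13158911-13159210, plus strand: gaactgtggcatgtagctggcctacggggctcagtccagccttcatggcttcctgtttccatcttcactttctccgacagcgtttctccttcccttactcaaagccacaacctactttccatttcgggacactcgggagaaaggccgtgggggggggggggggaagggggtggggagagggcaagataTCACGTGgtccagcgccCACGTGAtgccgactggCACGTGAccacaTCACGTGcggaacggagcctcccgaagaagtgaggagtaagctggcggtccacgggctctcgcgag
Mcoln1, chr8:3500269-3500568, plus strand: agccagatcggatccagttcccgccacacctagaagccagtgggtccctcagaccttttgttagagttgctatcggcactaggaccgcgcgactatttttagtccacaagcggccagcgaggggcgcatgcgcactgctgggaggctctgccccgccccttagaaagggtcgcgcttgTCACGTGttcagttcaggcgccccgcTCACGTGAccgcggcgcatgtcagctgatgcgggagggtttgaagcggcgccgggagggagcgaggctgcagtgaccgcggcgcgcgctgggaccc
Cln3, chr7:126583187-126583486, minus strand: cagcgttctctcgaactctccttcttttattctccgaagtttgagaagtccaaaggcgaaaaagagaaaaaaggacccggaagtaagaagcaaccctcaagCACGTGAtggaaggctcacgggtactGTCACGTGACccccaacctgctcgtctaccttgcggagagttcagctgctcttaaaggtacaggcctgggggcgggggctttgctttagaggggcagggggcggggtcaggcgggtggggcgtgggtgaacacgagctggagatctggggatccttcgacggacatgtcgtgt
Atp6v0b, chr4:117887280-117887579, minus strand: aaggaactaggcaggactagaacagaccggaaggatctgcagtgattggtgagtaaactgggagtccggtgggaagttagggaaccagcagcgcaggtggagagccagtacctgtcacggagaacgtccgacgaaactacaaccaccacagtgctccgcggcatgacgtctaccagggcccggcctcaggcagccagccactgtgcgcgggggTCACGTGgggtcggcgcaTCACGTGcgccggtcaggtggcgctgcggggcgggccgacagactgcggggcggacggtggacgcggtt
Atp6v0d1, chr8:105566015-105566314, minus strand: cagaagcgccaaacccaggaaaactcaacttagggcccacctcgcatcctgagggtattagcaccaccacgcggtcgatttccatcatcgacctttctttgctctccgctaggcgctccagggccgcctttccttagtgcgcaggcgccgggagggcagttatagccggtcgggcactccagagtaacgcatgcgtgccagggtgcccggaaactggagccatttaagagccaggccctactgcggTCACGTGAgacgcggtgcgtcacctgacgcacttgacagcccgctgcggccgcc
Ctsf, chr19:4854915-4855214, plus strand: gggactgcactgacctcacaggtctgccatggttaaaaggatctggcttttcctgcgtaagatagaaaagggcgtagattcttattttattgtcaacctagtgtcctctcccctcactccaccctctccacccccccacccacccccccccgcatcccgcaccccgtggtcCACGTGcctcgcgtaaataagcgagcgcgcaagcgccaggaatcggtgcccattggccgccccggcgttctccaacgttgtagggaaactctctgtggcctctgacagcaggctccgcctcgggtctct

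In the Lamp1 promoter 4 copies began 61, 45, 28 and 15 bases before the start site. Mcoln1 had copies at 71 and 45 bases before the start, Atp6v0b at 36 and 18, and Atp6v0d1 had 1 copy that spans the start site. In the printed Cln3 promoter 1 palindrome extends further on both sides. This form is held by 1 of the 48 promoters, 0.326% of all promoters and 0.636% of the promoters of genes tested. The other listed Cln3 promoter, chr7:126585768-126586067, holds no CACGTG, and Ctsa also has a listed promoter without it. The 14 members with CACGTG had a median log2 fold change of -0.19, and the 25 members with a promoter entry but no such motif had a median of -0.20. A match is a description of the letters in the window, and binding was not measured.

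The V1 sector held the member with the smallest p, Atp6v1f, and the third smallest was that of Atp6v1g1. Of its 9 genes 0 rose or fell, 8 had a log2 fold change below 0 (56% of all genes did), and the median was -0.26, against -0.05 for all genes. After the length and GC correction 7 of the V1 genes were below 0 (52.5% of all genes were). Their median was then -0.14, against -0.02 for all genes. Atp6v1f, a subunit of the central stalk, spans chr6:29467718-29470512 on the plus strand (GRCm38, GENCODE vM21). Its level was 147.7 FPKM in J11, 167.0 in J13 and 125.9 in J15, and 107.4 FPKM in 72, 105.0 in 76 and 98.5 in 78. All 3 aged libraries were below all 3 young ones. The log2 fold change of Atp6v1f was -0.49 (SE 0.114, adjusted p = 0.0651 by limma). Without J15 it passed the test at -0.60 (adjusted p = 0.043), where 365 of the 13041 genes tested fell, against 158 with all libraries. After the correction for length and GC content the log2 fold change of Atp6v1f was -0.14.

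Atp6v1g1, a subunit of the peripheral stalks that hold the head of the pump still, was at 67.3, 73.2 and 62.0 FPKM in 3M and at 57.5, 47.4 and 49.5 FPKM in 22M. The groups did not overlap, with a log2 fold change of -0.39 (SE 0.105, adjusted p = 0.0847 by limma). Its partner in the same stalks, Atp6v1e1 (chr6:120794305-120822793, minus strand), was at 202.2, 210.9 and 127.8 FPKM in 3M and at 94.0, 92.8 and 150.3 FPKM in 22M. J15 sat among the aged libraries and 78 among the young ones, so the groups overlapped. Atp6v1e1 was the member past the study's thresholds (log2 fold change -0.68, SE 0.259, adjusted p = 0.155 by limma). It was not past them without J11 (-0.58), J13 (-0.55), 72 (-0.57) or 76 (-0.56), nor after quantile normalization (-0.49) or the length and GC correction (-0.47).

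Atp6v1g2, the neuronal form of the same stalk subunit, had 1 library far above the rest. It was at 162.2, 423.9 and 173.4 FPKM in 3M and at 116.5, 139.4 and 152.2 FPKM in 22M. All 3 aged libraries were below all 3 young ones, but the size of the log2 fold change of Atp6v1g2 depended on J13. It was -0.75 (SE 0.362, adjusted p = 0.232 by limma) with that library and -0.31 (adjusted p = 0.277) without it. The gene overlaps Nfkbil1 on the opposite strand by 2133 bases, and how the quantification used strand is not given in the sources used here, so its level is uncertain.

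The other V1 subunits differed less. Atp6v1h, a regulatory subunit, was at 48.9, 51.2 and 48.9 FPKM in 3M and 37.4, 40.4 and 46.6 FPKM in 22M (log2 fold change -0.26, SE 0.0984, adjusted p = 0.15 by limma). Atp6v1d, a rotor subunit, was at 70.3, 71.7 and 67.3 FPKM against 58.9, 57.9 and 62.9 FPKM (-0.22, SE 0.0726, adjusted p = 0.122). For both, the 2 groups were apart in every library. The catalytic subunit gene Atp6v1a lay on the other side of 0, at 82.9, 100.4 and 102.1 FPKM in 3M and 98.3, 109.1 and 116.4 FPKM in 22M, with overlapping groups (log2 fold change 0.18, adjusted p = 0.331). Atp6v1b2, which forms the head together with the catalytic subunit, had a log2 fold change of -0.06, and Atp6v1c1 had one of -0.10, both within the spread of the libraries. The V1 genes therefore did not all lie on the same side of 0.

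**Figure D2:**
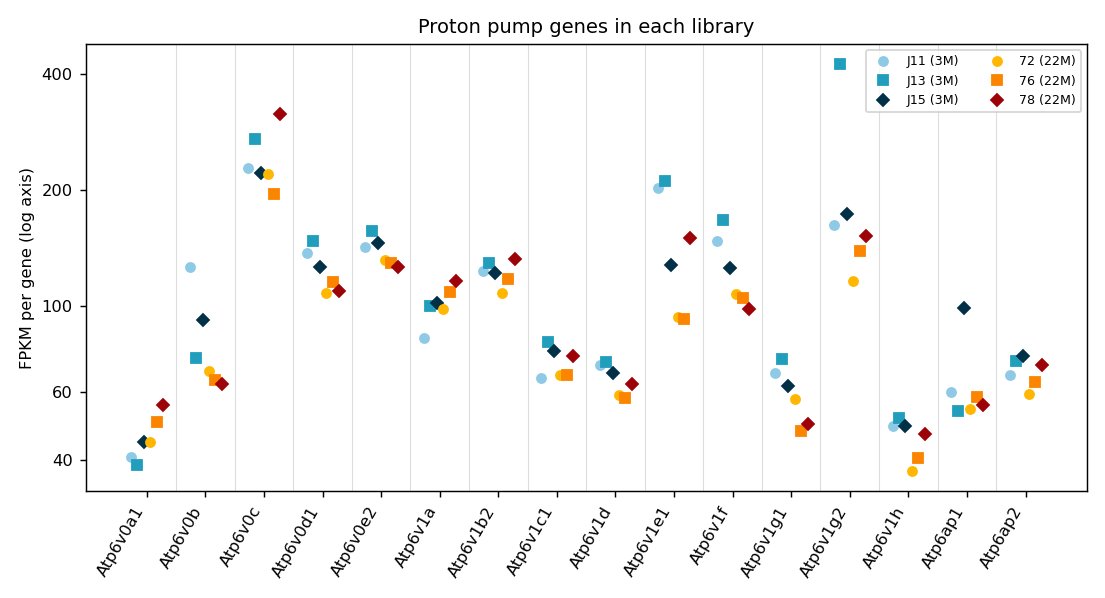
FPKM per gene (log axis) of the 16 proton pump genes in each library, blue for 3M and yellow to red for 22M. Atp6v1f, Atp6v0d1 and Atp6v1g1 show the aged libraries below the young ones, Atp6v0a1 shows the reverse, and J13 stands alone for Atp6v1g2 at 423.9 FPKM.

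In the V0 sector, 0 of 5 genes rose or fell, with a median log2 fold change of -0.20. Atp6v0d1, which joins the rotor to the ring, was at 137.1, 147.6 and 126.1 FPKM in 3M and 108.0, 115.5 and 109.7 FPKM in 22M. The aged libraries were all lower (log2 fold change -0.30, SE 0.0836, adjusted p = 0.0888 by limma). Atp6v0b, a ring subunit, was at 126.5, 73.5 and 92.2 FPKM in 3M and at 67.9, 64.5 and 62.8 FPKM in 22M. Its young libraries spread widely and its aged ones did not, and the log2 fold change was -0.54 (SE 0.188, adjusted p = 0.131), or -0.34 without J11. An antisense gene, Gm12841, covers 1670 bases of Atp6v0b.

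The most abundant pump gene was Atp6v0c, which makes most of the rotor ring. Its level was 228.9, 270.9 and 221.3 FPKM in 3M and 220.1, 195.1 and 315.1 FPKM in 22M. The lowest and the highest of these 6 values were both from aged libraries, and the log2 fold change was -0.01 (SE 0.186, adjusted p = 0.985 by limma). Named pseudogenes of Atp6v0c exist, so its level may hold reads of near-identical copies. Atp6v0e2, a small membrane subunit, was at 142.5, 157.2 and 145.8 FPKM against 131.9, 129.2 and 126.6 FPKM (-0.20, SE 0.0718, adjusted p = 0.143).

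Atp6v0a1, the brain form of the subunit that makes the proton path, was the only pump gene whose aged libraries all lay above the young ones. It was at 40.7, 38.8 and 44.4 FPKM in 3M and 44.5, 50.2 and 55.5 FPKM in 22M, so that the highest young and lowest aged values nearly met. The log2 fold change of Atp6v0a1 was 0.27 (SE 0.106, adjusted p = 0.162 by limma). Both accessory proteins of the pump were at similar levels. Atp6ap2, the prorenin receptor, was at 66.2, 72.3 and 74.3 FPKM against 59.4, 63.7 and 70.4 FPKM (log2 fold change -0.14, adjusted p = 0.376). Atp6ap1 was at 59.9, 53.5 and 98.7 FPKM against 54.3, 58.2 and 55.5 FPKM (-0.28, SE 0.219, adjusted p = 0.444), with J15 far above the other 5.

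Summed over the 16 pump genes, the FPKM were 1771.5, 2122.3 and 1708.6 in 3M and 1430.9, 1452.5 and 1679.1 in 22M. The groups did not overlap, by a margin of J15 over 78 that is small beside the spread. As a share of all FPKM of the library, the pump genes took 0.5%, 0.593% and 0.496% in 3M and 0.409%, 0.447% and 0.528% in 22M, and these ranges overlapped. The total FPKM of the libraries ran from 344405 to 358073 in 3M and from 318024 to 349911 in 22M. The 30 other members took 0.352%, 0.329% and 0.341% in 3M and 0.337%, 0.334% and 0.314% in 22M.

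Among the 7 lysosomal cathepsins, 0 rose or fell, 6 had a log2 fold change below 0 (56% of all genes did) and the median was -0.23. After the length and GC correction 4 were below 0 and the median was -0.02, the same as for all genes tested. Ctsf, a cysteine protease whose loss causes neuronal storage disease, was at 19.0, 17.7 and 16 FPKM in 3M and 14.0, 13.1 and 12.3 FPKM in 22M. All aged libraries were lower (log2 fold change -0.41, SE 0.102, adjusted p = 0.0741 by limma). Ctsa, a serine carboxypeptidase that also stabilises other lysosomal enzymes, was at 22.7, 24.6 and 25.7 FPKM against 24.0, 16.8 and 18.6 FPKM (-0.31, SE 0.141, adjusted p = 0.218). Its groups overlapped through library 72, and Pltp and Neurl2 overlap the gene on the opposite strand. Ctsb, the most abundant cathepsin here, was at 120.4, 121.9 and 107.9 FPKM in 3M and 106.9, 108.2 and 104.0 FPKM in 22M (log2 fold change -0.13, SE 0.0769, adjusted p = 0.317). Ctsb stayed within a narrow range in all 6 libraries, and after the length and GC correction its log2 fold change was -0.28.

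Ctsd, the main aspartic protease of lysosomes, was at 102, 84.5 and 74.4 FPKM in 3M and 92.8, 67.0 and 64.0 FPKM in 22M (log2 fold change -0.23, SE 0.176, adjusted p = 0.441 by limma). The groups overlapped, and the annotated gene Gm49369 covers 6757 bases of Ctsd on the same strand, so the value of Ctsd is uncertain. The cysteine proteases Ctsz, Ctsl and Ctsh had log2 fold changes of -0.29, -0.09 and 0.01 at mean levels of 22.4, 27.2 and 5.79 FPKM, and their groups overlapped.

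Tpp1 and Ppt1, a tripeptidyl peptidase and a thioesterase that are each lost in a childhood form of neuronal ceroid lipofuscinosis, stood at the ends of the range. Tpp1 (chr7:105744811-105752235, minus strand) was at 10.9, 10.1 and 11.4 FPKM in 3M and 14.3, 13.3 and 11.9 FPKM in 22M. Its aged libraries were all higher, in contrast to most hydrolases (log2 fold change 0.27, SE 0.106, adjusted p = 0.159 by limma). Ppt1 (chr4:122836242-122859175, plus strand) was at 17.3, 8.75 and 46.5 FPKM in 3M and 8.95, 9.94 and 5.83 FPKM in 22M. J15 was far above the rest while J13 lay within the aged range. The log2 fold change of Ppt1 was -1.21 (SE 0.56, adjusted p = 0.22), or -0.59 without J15.

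The 9 glycosidases and sulfatases, which strip sugars and sulfates from glycans and glycolipids, had a median log2 fold change of -0.12, and 0 rose or fell. The smallest p was that of Naglu, an enzyme of heparan sulfate breakdown, at 3.41, 2.39 and 3.33 FPKM in 3M and 2.40, 2.40 and 1.41 FPKM in 22M (log2 fold change -0.48, SE 0.224, adjusted p = 0.226 by limma). J13 of the young group matched the aged libraries 72 and 76. Hexa, a subunit of beta-hexosaminidase, was at 15.4, 12.8 and 14.1 FPKM against 13.1, 13.1 and 11.5 FPKM (-0.16, SE 0.108, adjusted p = 0.382). Gaa, the acid glucosidase of glycogen, was the most abundant of these genes at 91.5, 77.9 and 65.5 FPKM against 75.8, 78.3 and 84.8 FPKM (0.04, SE 0.13, adjusted p = 0.878). The young libraries of Gaa span all aged ones. Neu1, a sialidase, had non-overlapping groups with a small difference, at 13.1, 13.8 and 13.3 FPKM against 12.9, 12.9 and 12 FPKM (log2 fold change -0.08, SE 0.085, adjusted p = 0.56). Galc, Gla, Gusb, Man2b1 and Sgsh had log2 fold changes from -0.15 to 0.07, at means of 1.32 FPKM (Sgsh) to 10.1 FPKM (Man2b1), and their groups overlapped.

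Neither of the sphingolipid hydrolases passed the test. Smpd1, acid sphingomyelinase, was at 39.0, 39.1 and 34.5 FPKM in 3M and 34.8, 30.1 and 28.2 FPKM in 22M, with 72 just above J15 (log2 fold change -0.27, SE 0.106, adjusted p = 0.161 by limma). Asah1, acid ceramidase, was at 7.91, 8.09 and 9.13 FPKM against 6.37, 10.9 and 10.4 FPKM (0.10, SE 0.206, adjusted p = 0.789), the aged libraries lying on both sides of the young ones.

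Psap, whose product is cut into the saposins that help the hydrolases reach lipids, was the most abundant of the 46 genes. It was at 388.3, 390.3 and 375.4 FPKM in 3M and 393.8, 362.7 and 333.4 FPKM in 22M. The young libraries were close together and the aged ones spanned them (log2 fold change -0.09, SE 0.0851, adjusted p = 0.551 by limma). Grn, progranulin, a partner of prosaposin and of Ctsd, was at 18.6, 17.5 and 15.4 FPKM against 18.7, 12.5 and 13.3 FPKM (-0.22, SE 0.165, adjusted p = 0.427).

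Among the 6 membrane proteins 0 rose or fell, with a median log2 fold change of -0.08. Lamp1, a main glycoprotein of the lysosomal membrane, was at 133.9, 125.6 and 122.3 FPKM in 3M and 116.9, 121.0 and 106.6 FPKM in 22M. The groups did not overlap, but by little, and Grtp1 covers 3317 bases of Lamp1 on the opposite strand (log2 fold change -0.15, SE 0.0809, adjusted p = 0.286 by limma). Cln3, lost in juvenile neuronal ceroid lipofuscinosis, was at 3.11, 1.99 and 4.36 FPKM against 1.72, 2.47 and 1.80 FPKM (-0.51, SE 0.268, adjusted p = 0.271), with J13 inside the aged range. Scarb2, the carrier of glucocerebrosidase, and the calcium channel gene Mcoln1 had log2 fold changes of 0.10 and -0.01 at means of 21.0 and 15.3 FPKM.

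Cd63, a tetraspanin of late endosomes and lysosomes, and Lamp2, a receptor of chaperone-mediated autophagy, had the same order of libraries within each age as the choroid plexus gene Ttr. Cd63 was at 63.7, 60.5 and 68.8 FPKM in 3M and 62.7, 45.4 and 36.4 FPKM in 22M (log2 fold change -0.45, SE 0.191, adjusted p = 0.19 by limma). Lamp2 was at 36.7, 31.9 and 42.7 FPKM against 52.1, 36.7 and 33.0 FPKM (0.11, SE 0.19, adjusted p = 0.74). In 22M both were highest in 72 and lowest in 78, and in 3M both were highest in J15 and lowest in J13. Ttr, transthyretin, which the choroid plexus makes in large amounts, was at 1860, 1566 and 2398 FPKM in 3M and 2669, 1098 and 121.8 FPKM in 22M, which is the same order in both groups. All 10 choroid plexus markers had 72 highest and 78 lowest in 22M and J15 highest in 3M, but Kl, Aqp1, Sostdc1 and F5 were lowest in J11 rather than J13. The 10 choroid plexus markers, all in the table, summed to between 1648 and 2528 FPKM in 3M and between 137.7 and 2879 FPKM in 22M, and 0 of 10 rose or fell (median log2 fold change -0.52). Without 78 the log2 fold change of Cd63 was -0.27 (adjusted p = 0.379), and without 72 it was -0.66 (adjusted p = 0.0876), which is past the study's thresholds. That of Lamp2 was 0.24 without 78 (adjusted p = 0.504) and -0.082 without 72 (adjusted p = 0.749). Tpp1 had the order of Ttr in both groups as well. The 22M order 72, 76, 78 was also that of Ctsd, Ctsz and Psap, among others. The total FPKM of the libraries had it too (349911, 324802 and 318024). The match with Ttr was picked out after the values were seen, and the share of all genes with it was not counted. The part of choroid plexus RNA in the levels of Cd63 and Lamp2 was not tested. A transcribed pseudogene of Cd63 adds to the uncertainty of its level.

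**Figure D3:**
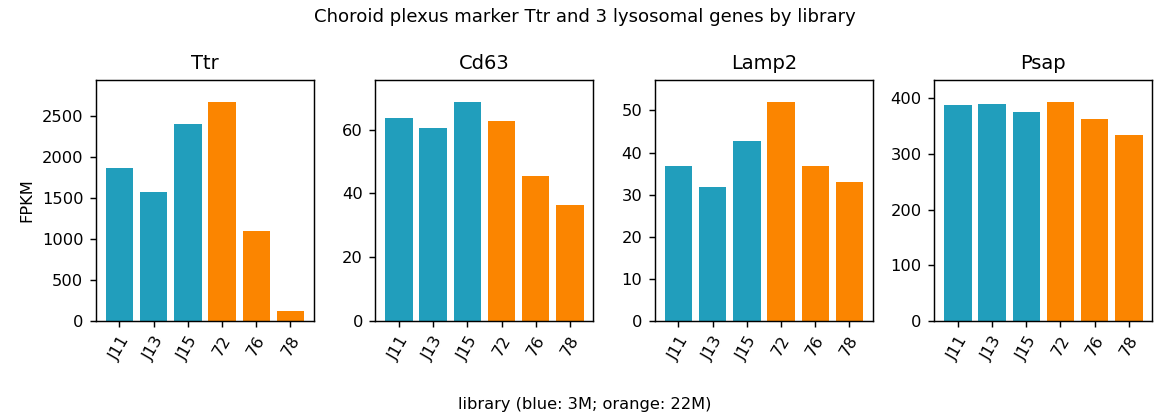
FPKM of Ttr, Cd63, Lamp2 and Psap in each library (bars from 0; blue for 3M, orange for 22M). Within 22M the bars of all 4 genes are ordered 72, 76, 78. Ttr drops there from 2669 to 121.8 FPKM while Psap changes from 393.8 to 333.4 FPKM. Within 3M Psap is highest in J13 and lowest in J15, the reverse of Ttr.

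Both transcription factors were expressed at low levels, lower on average in 22M. Tfeb (chr17:47737030-47792419, plus strand) was at 3.06, 2.86 and 2.54 FPKM in 3M and 2.46, 2.29 and 1.29 FPKM in 22M. The groups did not overlap, but 72 came close to J15 (log2 fold change -0.43, SE 0.221, adjusted p = 0.257 by limma). Tfe3 was at 10.6, 10.2 and 7.75 FPKM against 8.32, 8.31 and 6.19 FPKM (-0.30, SE 0.171, adjusted p = 0.298), with J15 below 2 of the aged libraries. Tfeb and Tfe3 act mainly through their entry into the nucleus, which RNA levels do not measure.

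Single transcripts gave no call either. The members had 99 transcripts in the table, 22 genes having 1 and 24 having 2 to 6, and 95 transcripts passed the filter. Of these 0 rose (0.123% of all transcripts tested did) and 0 fell (0.0846%), and the smallest adjusted limma p was 0.145, for Atp6v1f-201. At an unadjusted p under 0.05, 12 were lower (background 9.93%) and 3 higher (background 7.38%). By the study's thresholds 1 was higher (background 5.03%), the minor Atp6v1a-205 with a mean of 0.917 FPKM, and 4 were lower (background 4.54%): Atp6ap1-202, Atp6v0b-201, Atp6v0b-206 and Atp6v1e1-201.

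The division of a gene between its transcripts differed between libraries of the same age. In J15, Ppt1-201 reached 43.5 FPKM, against 10.4 and 2.42 FPKM in J11 and J13 and at most 5.06 FPKM in 22M, and it made up 93.6% of the gene. Ppt1-202 and Ppt1-204 stayed between 1.25 and 4.86 FPKM in all 6 libraries. In the same library Atp6ap1-202 was at 55.7 FPKM, against 9.67 and 3.56 FPKM in J11 and J13 and 1.22, 0.353 and 0.00553 FPKM in 22M. The main transcript Atp6ap1-201 was at 49.3, 49.5 and 42.3 FPKM in 3M and 52.7, 55.2 and 53.0 FPKM in 22M, slightly higher in each aged library. The high values of Ppt1 and Atp6ap1 in J15 therefore lay in 1 transcript each. Also in J15, Tfe3-204 held 96.3% of Tfe3, against 15.7% to 29.9% in the other 5 libraries.

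Similar shifts occurred elsewhere. Atp6v0b-208 was listed at 0 FPKM in J13 but at 46 and 43.5 FPKM in J11 and J15 and at 30.9, 23.9 and 28.2 FPKM in 22M. Atp6v0b-201 was at 69.1, 60.3 and 39.9 FPKM in 3M and at 28.7, 33.3 and 28.4 FPKM in 22M (log2 fold change -0.86, SE 0.214, adjusted p = 0.155 by limma). In library 76, Gaa-201 took 70.1% of Gaa, against 9.7% to 19.7% in the other libraries, while the sum over Gaa was unremarkable. Ctsd-201 was listed at 0 FPKM in all libraries but J13, where it was at 12.9 FPKM. Values of single transcripts of these genes are therefore uncertain, and 9 of the 99 transcripts were listed at 0 in some library.

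Atp6v0a1 and Lamp2 each had 1 transcript whose groups did not overlap, next to other transcripts whose groups did. This was not particular to these genes. Gaa-203, Tfeb-202 and Atp6v1h-204 were lower and Atp6v1a-205 was higher in every aged library, each beside transcripts with overlapping groups. The share of all transcripts without overlap was not counted. Atp6v0a1-202 was at 28.5, 24.8 and 29.5 FPKM in 3M and 34.7, 37.3 and 39.6 FPKM in 22M (log2 fold change 0.43, SE 0.101, adjusted p = 0.148 by limma), while Atp6v0a1-201 had one of -0.11. Lamp2-203 was at 5.99, 5.23 and 6.57 FPKM against 7.67, 7.98 and 8.58 FPKM (0.42, SE 0.129, adjusted p = 0.199). The other isoforms of the gene, Lamp2-201 and Lamp2-202, had log2 fold changes of -0.03 and 0.13. The difference between transcripts of 1 gene was not tested.

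**Figure D4:**
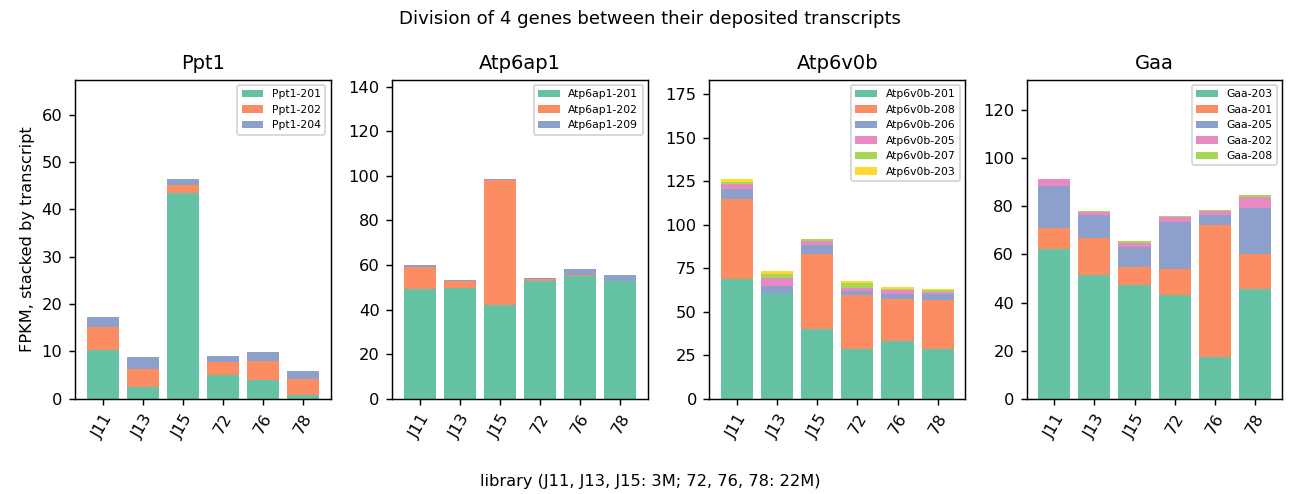
FPKM of Ppt1, Atp6ap1, Atp6v0b and Gaa stacked by deposited transcript in each library. J15 stands out for Ppt1-201 (43.5 FPKM) and Atp6ap1-202 (55.7 FPKM), Atp6v0b-208 is missing in J13, and Gaa-201 is large in 76 alone (54.9 FPKM).

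Transcript length moved with the fold changes, for members and for all genes alike. For genes under 1500 bases the median log2 fold change was -0.32 over all 2221 genes tested and -0.45 over the 7 members. Of these 7, the aged libraries all lay below the young ones for 3, Atp6v0b, Atp6v1f and Atp6v1g1, as they did for 41.8% of all genes of that length. From 1500 to 3000 bases it was -0.15 over all genes and -0.20 over 27 members, and above 3000 bases it was 0.11 over all genes and -0.02 over 12 members. The pump genes were shorter, with a median of 1765 bases against 2402 for the other members and 2922 for all genes tested. The 5 pump genes under 1500 bases had a median of -0.49, the 8 of middle length -0.23, and the 3 above 3000 bases 0.18. After each library was corrected for length and GC content, the median was -0.09 for the pump, -0.04 for the other members and -0.02 for all genes. Of the 46 members 2 then had an unadjusted p under 0.05, both lower in 22M, and 0 were higher, against 9.37% and 8.34% of all genes after the same correction. The 2 were Ctsb (log2 fold change -0.28, limma adjusted p = 0.186) and Atp6v1d (-0.29, adjusted p = 0.142). The cause of the trend with length was not tested.

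**Figure D5:**
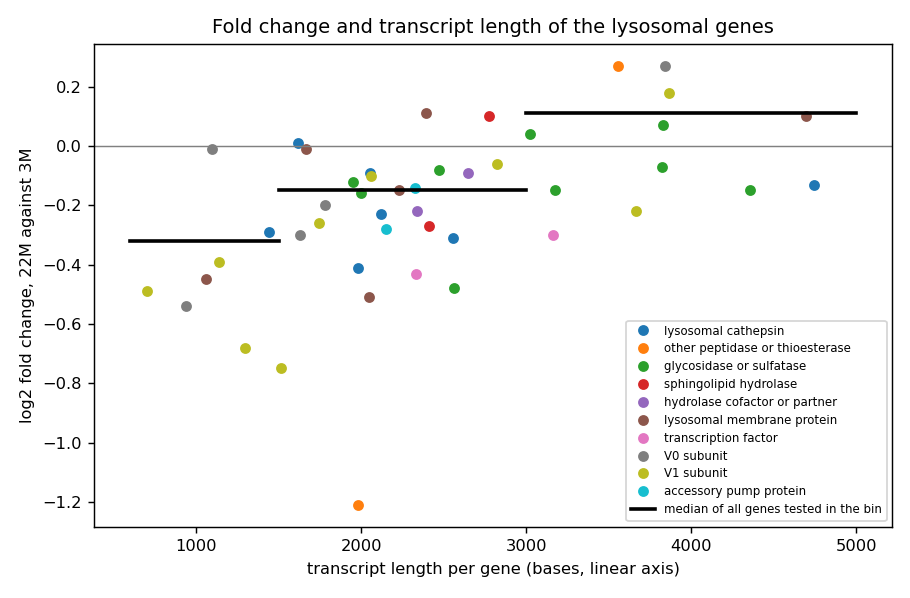
Log2 fold change of the 46 genes against transcript length in bases (mean over a gene's transcripts, weighted by FPKM), coloured by role, with black lines at the median of all genes tested in each length class (the last class is drawn to 5000 bases). All 7 members under 1500 bases lie below 0, the lowest points (Ppt1, Atp6v1g2) are of middle length, and the black lines rise from -0.32 to 0.11.

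A few other genes of the lysosome passed the test. Of 98 further lysosomal genes in the table in 4 lists, 97 were tested, 3 rose (0.92% of all genes tested did) and 1 fell (1.21%), with a median log2 fold change of -0.04. In the list of 32 other soluble enzymes and cofactors (median -0.11), Ids, iduronate sulfatase, rose from 107.1, 96.7 and 109.4 FPKM to 139.9, 142.5 and 148.8 FPKM (log2 fold change 0.46, SE 0.078, adjusted p = 0.0479 by limma). Next in that list by p were Arsb (0.36, adjusted p = 0.08) and Dnase2a (-1.44, adjusted p = 0.0819). Among 25 membrane proteins and transporters (median 0.03), Slc36a1, an amino acid exporter of lysosomes, rose from 2.41, 1.81 and 2.01 FPKM to 8.71, 10.3 and 11.7 FPKM (2.06, SE 0.156, adjusted p = 0.00928). Spns1, a transporter of lysophospholipids, rose from 2.50, 1.83 and 1.16 FPKM to 5.88, 5.22 and 4.88 FPKM (1.36, SE 0.23, adjusted p = 0.0479). For each of these 3 genes every aged library was above every young one. Abcb9 had a log2 fold change of -0.46 (adjusted p = 0.125).

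Of 23 genes of enzyme delivery and lysosome gene control (median -0.02), Lamtor4, part of the Ragulator complex that anchors mTORC1 signalling to lysosomes, fell. It was at 26.7, 26.4 and 22.7 FPKM in 3M and 17.3, 17.0 and 14.4 FPKM in 22M (log2 fold change -0.62, SE 0.113, adjusted p = 0.04996 by limma), and it was -0.27 after the length and GC correction. Its partners Lamtor5 (-0.54, adjusted p = 0.0513) and Lamtor2 (-0.46, adjusted p = 0.0628) did not pass. These adjusted p-values lay close to the threshold, and in several alternatives few genes of any kind passed. When J11, J13, 72, 76 or 78 was left out, 0 to 17 of all genes tested rose and 2 to 13 fell. Without J15, 181 rose and 365 fell, more than the 120 and 158 of the main fit. With the variance of the gene itself 0 rose and 0 fell, and with array weights 556 rose and 739 fell. Leaving out J11, J13, 72, 76 or 78 ended the calls of Ids (adjusted p of 0.0865 to 0.156), Spns1 (0.0728 to 0.15) and Lamtor4 (0.0876 to 0.157). Their log2 fold changes without any 1 library stayed between 0.41 and 0.50 for Ids, 1.14 and 1.57 for Spns1 and -0.70 and -0.54 for Lamtor4. With the variance of the gene itself the adjusted p was 0.103, 0.112 and 0.108, and with the length and GC correction it was 0.125 for Ids and 0.142 for Lamtor4. The call of Slc36a1 was lost without J13 (adjusted p = 0.0582), without 76 (0.0696) and with its own variance (0.074), while its log2 fold change without any 1 library ran from 1.96 to 2.16. Of 17 tested genes of further pump subunits and assembly factors (median -0.06), 0 rose or fell. The smallest adjusted p-values there were those of Dmxl2 (0.65, adjusted p = 0.0595), Tmem9b (-0.34, adjusted p = 0.064) and Oxr1 (0.55, adjusted p = 0.0888). By the study's thresholds 2 genes of that list were higher (4.08% of all genes tested) and 1 was lower (4.22%), the assembly factor Vma21. It was at 5.16, 16.3 and 17.2 FPKM in 3M and 4.48, 4.87 and 3.17 FPKM in 22M (-1.37, adjusted p = 0.118 by limma). J11 lay close to the aged libraries.

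Cell type and tissue markers differed between the groups beside these values. Of 10 oligodendrocyte markers 5 fell (Mog and Mag among them, median of the list -0.67), of 10 thalamus markers 4 fell (Prkcd, Ramp3, Tnnt1 and Shox2, median -1.25), all 5 erythroid markers rose, and of 10 neuron markers Map2 alone rose. Of 16 microglia markers 0 rose or fell (median -0.25, or -0.03 after the length and GC correction). Their summed levels were 279.4 to 393.6 FPKM in 3M and 243.2 to 286.0 FPKM in 22M. None of the 10 hippocampal subfield markers and 10 astrocyte markers passed the test, with medians of 0.03 and 0.15. For the brain cell type markers, fewer cells of a type and less RNA per cell cannot be told apart in such samples. The cause of the differences in thalamus and erythroid markers was not tested. The part of all these marker differences in the members' levels was not tested either.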

How the data were processed

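Hippocampal mRNA was measured in 6 libraries, 3 per age, which were assigned to the groups by the library names in the labels. The authors enriched polyadenylated RNA with oligo beads, used a stranded KAPA kit and deposited FPKM, 1 value per transcript and library, for 25409 transcripts. The submitters' processing notes name HISAT2 and GRCm38 (mm10). Not given in the sources used here are the quantifier, its version, how it used strand and which annotation release it read. FPKM keep any difference between libraries in RNA quality, fragment size or composition. No steps of whole reads were seen among the deposited values, depth is therefore unknown, no counting interval could be given, and precision rests on the spread between libraries. With 3 libraries against 3 the smallest exact permutation p is 0.1.

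FPKM were summed per gene, and limma 3.58.1 (R 4.3.3) tested the 13041 of 13321 genes that averaged at least 0.5 FPKM, with a variance trend, a pseudocount of 0.5, two-sided p-values and Benjamini-Hochberg adjustment. It tested 23637 transcripts likewise. Lengths, GC content and spans came from GENCODE vM21, which held 99.7% of the transcript identifiers (versions ignored), and promoters from RefSeq (GRCm38.p6). The 46 members, the other lists and the tests were chosen with earlier results of these data known. All members were named, with full values for those with the smallest p and the highest level in each role. Further genes are those past the adjusted p and the 3 smallest p-values of each lysosome list, and Vma21, added after its values were seen. Members printed with full values beyond this rule were chosen after their values were seen. Alternatives were other pseudocounts, filters, scalings and variance models, array weights, the highest transcript, a spline correction for length and GC content (4 degrees of freedom each), and leaving out each library. On simulated data, 61% of 100 genes with a log2 change of 1 and 94% of 100 with a change of 2 were called, with 5 of 12841 unchanged genes. For transcripts these were 7% and 46%, with 3 of 23437. The simulated noise was normal and independent, with the variances that limma estimated, so it met the assumptions of the test. Log2 changes under 1 were not simulated, and all members but Ppt1 had smaller ones.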

Additional observations from a re-analysis of the deposited data

How the results depend on the processing

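The count of members that rose stayed at 0 in all alternatives. The count that fell was 3 with array weights (Ctsf -0.41, Atp6v1f -0.50 and Atp6v1g1 -0.45), where 739 of the 13041 genes tested fell. It was 0 to 1 when single libraries were left out (1 without J15, Atp6v1f, where 365 of all genes fell). Members lower by the study's thresholds numbered 0 under quantile normalization, each gene's own variance and the length and GC correction, 2 with array weights and 2 with the highest transcript, and 0 to 4 without single libraries (Cd63 alone without 72, 4 without J13, namely Atp6v0b, Cln3, Naglu and Ppt1, 2 without J15, 0 without 76). The median log2 fold change after the length and GC correction was -0.059 for all members, -0.036 for the hydrolases and the rest of the non-pump members and -0.092 for the pump, which was -0.11 under quantile normalization. Of the other lysosome genes, the count that rose was 1 without a variance trend, 0 with each gene's own variance, 6 with array weights, 1 with the highest transcript and 0 to 6 without single libraries (0 without J13 or 76, 6 without J15, 1 without J11, 72 or 78). The count that fell was 0 with either other pseudocount, no filter, median-of-ratios, quantile normalization, no trend, own variance, the highest transcript or the length and GC correction, 2 at a mean of at least 1 FPKM, 4 with array weights, and 0 to 2 without single libraries. Without J11 the 1 gene that fell was Vma21, and without J15 the 2 were Lamtor1 and Lamtor4. Lamtor4, Ids and Spns1 thus lay close to the threshold. Slc36a1 was not called with its own variance (adjusted p = 0.074), without J13 (0.0582) or without 76 (0.0696), where few of all genes were called.

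Signs changed only for genes that did not pass the test. With the length and GC correction Ctsl became 0.013, Ctsz 0.018, Hexa 0.048, Galc -0.017, Gusb 0.050, Neu1 0.088, Psap 0.033, Scarb2 -0.054, Mcoln1 0.27, Atp6v0c 0.33, Atp6v0e2 0.0075 and Atp6v1c1 0.0058. With quantile normalization Ctsb became 0.040, Psap 0.092, Lamp1 0.028, Mcoln1 0.032, Atp6v0c 0.17, Atp6v0e2 0.016, Atp6v1b2 0.10 and Atp6v1c1 0.030. With median-of-ratios scaling Mcoln1 became 0.047 and Atp6v0c 0.048. With array weights Gusb became 0.073 and Mcoln1 0.10. With the highest transcript Gaa became -0.70, Lamp2 -0.035, Cln3 0.65, Mcoln1 0.14, Atp6v0c 0.021, Atp6ap1 0.19 and Dmxl2 -0.065. Without single libraries Ctsh ran from -0.37 to 0.26, Ctsl from -0.23 to 0.045, Gaa from -0.085 to 0.16, Gusb from -0.30 to 0.035, Asah1 from -0.036 to 0.33, Lamp2 from -0.082 to 0.24, Mcoln1 from -0.11 to 0.12, Atp6v0c from -0.21 to 0.14 and Atp6v1b2 from -0.14 to 0.0034. The cause was not tested.

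Over all genes, 49.2% of those past the study's thresholds lay above 3M, against 60% with median-of-ratios scaling, 58.3% with quantile normalization and 61.3% with the length and GC correction. Over all genes 120 rose and 158 fell, against 23 and 14 without a variance trend, 0 and 0 with each gene's own variance, 556 and 739 with array weights, and 29 and 16 with the length and GC correction. Without J15, 181 rose and 365 fell. No paired analysis was possible because the library names share no number between the groups. Depth is unknown, so the limit it sets on low genes such as Sgsh, Tfeb and Naglu could not be given.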

Other observations

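Some lysosomal genes that are not members have well-known ties to microglia or to the pump. Ctss, a cathepsin made mainly by microglia in the brain, was at 68.7, 47.5 and 54.9 FPKM in 3M and 60.2, 56.6 and 48.0 FPKM in 22M (log2 fold change -0.04, limma adjusted p = 0.873). Cd68, a lysosomal glycoprotein of phagocytes, was at 16.2, 10.2 and 12.1 FPKM in 3M and 14.2, 14.2 and 10.6 FPKM in 22M (0.04, adjusted p = 0.918). Of the other forms of the proton path subunit, Atp6v0a2 was at 7.52, 10.3 and 5.61 FPKM in 3M and 5.90, 6.18 and 6.64 FPKM in 22M. Tcirg1, the form of osteoclasts, was at 0.697, 0.868 and 1.74 FPKM in 3M and 0.104, 1.86 and 0.0162 FPKM in 22M. These genes were chosen after their values were seen.

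All 5 measured Ragulator genes were lower in every aged library, and all 5 are short. Of all genes tested 21.1% were lower in every aged library, and of the 2221 under 1500 bases 41.8% were. Lamtor1 was at 56.3, 56.1 and 44.1 FPKM in 3M and 40.3, 36.4 and 35.5 FPKM in 22M, and Lamtor3 at 16.3, 22.2 and 19.6 FPKM against 14.6, 15.7 and 13.2 FPKM. The lengths of Lamtor1 to Lamtor5 run from 630 to 1249 bases. After the correction for length and GC content their log2 fold changes were -0.13, -0.09, -0.19, -0.27 and -0.28, all still below 0.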
